A study of Mus musculus with 82 samples.

Results

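Splicing factor genes were followed across laser-captured plasma cells and whole inflammatory granulomata of mice on the way to plasma cell tumors. The set was defined as the genes on the array with a symbol that starts with Hnrnp, Srsf, Sf3a, Sf3b, Prpf, Snrp (without Snrpn) or Rbm followed by a number, and the export factor gene Alyref. This gave 75 of 12394 genes: 18 Hnrnp, 9 Srsf, 9 Sf3a or Sf3b, 7 Snrp, 10 Prpf and 21 Rbm genes and Alyref. Where a gene had several probe sets, the one of highest average signal across the 82 arrays stood for it. Another 9 genes of this rule (Hnrnpa3, Rbm3, Rbm4, Rbm10, Snrpa, Snrpd1, Snrpd2 and 2 pseudogenes) lay only on probe sets shared with other genes and were not used. The filter on low values was passed by 74 members, and Rbm4b (mean log2 level 3.82) was left out of the tests.

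Introns are removed from a transcript by the spliceosome, which is built anew on each intron from small nuclear ribonucleoproteins (snRNPs) of a noncoding RNA with a ring of Sm proteins. The U1 snRNP marks the start of the intron and the U2 snRNP with its SF3a and SF3b subunits marks the branch site. The U4/U6.U5 tri-snRNP with its PRPF proteins then joins. SR proteins (Srsf genes) mostly promote the use of the exons they bind, and heterogeneous nuclear ribonucleoproteins (Hnrnp genes) often repress it. In plasma cells, processing of the immunoglobulin heavy chain transcript decides between the membrane-bound and the secreted antibody.

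The mice were BALB/c.iMycEμ animals, which carry a Myc gene inserted near the Eμ enhancer of the immunoglobulin heavy chain locus, and all had received 0.5 ml of pristane oil into the peritoneum at an age of 8 weeks or more. No group without pristane or without the transgene was analysed here. Methyl green pyronin stained the plasma cells in frozen granuloma sections, a laser cut them out, and the labels call them nascent plasma cell tumor cells. Undissected sections, which hold plasma cells too, gave the whole granuloma RNA. Both went through 2 rounds of linear amplification. Study 1 had captured cells of days 7, 17, 33, 46 and 104 (4, 4, 3, 3 and 1 specimens) and whole granuloma of days 7, 17, 33 and 104 (2, 2, 3 and 1 specimens). Study 2 had 3 specimens of each kind at days 7, 17, 33, 49 and 105. Both kinds of sample shared a specimen number (code) and day for 15 specimens of study 2 and 5 of study 1. In the titles of study 2 a letter follows this number, and it was not used. The letter differs among the arrays of code 1 of days 7, 33 and 105 and of code 2 of day 33. Nothing in the labels says whether a specimen is 1 animal, so that p-values measure the spread between specimens.

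Captured arrays had medians of 4.973 to 5.641 and whole granuloma arrays of 5.727 to 7.335, so that the tissues were compared on quantile-normalized log2 values. The difference between 3-prime and 5-prime control probe sets, which grows as cDNA gets shorter, averaged 4.14 ± 0.90 (SD, n = 30) on captured and 1.61 ± 0.13 (n = 15) on whole granuloma arrays of study 2, and 4.49 ± 0.68 (n = 25) and 3.19 ± 0.36 (n = 12) on those of study 1. Of 13 plasma cell markers tested, 6 were higher (46.2%, against 34.4% of all genes tested) and 1 lower (7.69%, against 35.4%) in captured cells of study 2. In study 1, 5 were higher (38.5%, against 31.5%) and 0 lower (against 29%). All 9 smooth muscle markers and all 8 adipocyte markers were lower in both studies, and 10 and 14 of 15 macrophage markers were lower, while Mrc1 among them was higher in study 2 (0.65) and lower in study 1 (−1.90). Study 2 called 9 of 22 cell cycle genes higher (40.9%) and 4 lower (18.2%), and study 1 called 12 (54.5%) and 0, beside the same shares of all genes. The 7 markers of pancreatic acinar cells went apart: 1 was higher in study 2 (median difference 0.65), and 6 were lower in study 1 (median −1.93), where their mean level in whole granuloma ran from 5.28 through a median of 5.68 to 11.40 and in captured cells from 4.45 to 4.81. In study 2 it ran from 4.72 to 10.46 in captured cells and from 4.55 to 5.08 in whole granuloma. Averaged over the 15 macrophage markers, captured specimens still spanned 7.21 to 9.47 (log2) beside 7.93 to 10.04 for whole granuloma in study 2, and 6.94 to 9.36 beside 9.38 to 10.15 in study 1. The part of these marker genes in the results was not tested, and a fit with the control probe set difference as a covariate is given with the scalings. Fewer cells of a type and less RNA per cell cannot be told apart in such samples. An array of code 2 of day 49 of study 2, captured, stood apart, with a mean correlation of 0.246 with the other captured arrays of its study. The next lowest was 0.85, for an array of code 1 of day 7. The counts by study, in both studies, with opposite calls, of the study difference and over days are also given without it.

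The promoter windows of 5 members that carry the main patterns are shown first: Sf3b6 and Hnrnpd (higher in captured cells of both studies), Srsf5 (lower in both) and Alyref and Hnrnpl (opposite in the 2 studies). Windows run from 250 bases before to 50 bases after the gene start, 5′ to 3′ on the strand of the gene, from RefSeq (GRCm38.p6). Capitals mark the motifs searched on both strands, and neighbouring or overlapping motifs run together in the capitals, as the ETS and GC-box letters of Srsf5 do. The motifs were the E-box CACGTG, which Myc binds with its partner Max, the ETS motif CCGGAAG, the CCAAT box CCAAT, the TATA box TATAAA, the GC-box GGGCGG, the YY1 motif AAGATGGCG and the motif of NRF1, which none of the 5 windows holds.
Sf3b6, chr12:4817358-4817657, plus strand: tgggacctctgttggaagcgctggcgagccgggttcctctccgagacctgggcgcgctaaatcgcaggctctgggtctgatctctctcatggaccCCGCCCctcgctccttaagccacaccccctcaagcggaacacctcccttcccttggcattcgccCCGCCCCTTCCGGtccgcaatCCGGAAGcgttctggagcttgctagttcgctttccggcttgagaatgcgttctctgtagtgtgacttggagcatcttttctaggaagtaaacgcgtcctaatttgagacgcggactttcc
Hnrnpd, chr5:99978889-99979188, minus strand: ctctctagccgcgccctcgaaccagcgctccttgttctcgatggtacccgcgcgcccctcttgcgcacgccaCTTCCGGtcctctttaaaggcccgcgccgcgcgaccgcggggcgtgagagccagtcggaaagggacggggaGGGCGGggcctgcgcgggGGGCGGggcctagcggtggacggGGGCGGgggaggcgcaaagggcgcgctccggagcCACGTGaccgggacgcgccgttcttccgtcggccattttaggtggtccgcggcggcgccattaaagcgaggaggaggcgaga
Srsf5, chr12:80945249-80945548, plus strand: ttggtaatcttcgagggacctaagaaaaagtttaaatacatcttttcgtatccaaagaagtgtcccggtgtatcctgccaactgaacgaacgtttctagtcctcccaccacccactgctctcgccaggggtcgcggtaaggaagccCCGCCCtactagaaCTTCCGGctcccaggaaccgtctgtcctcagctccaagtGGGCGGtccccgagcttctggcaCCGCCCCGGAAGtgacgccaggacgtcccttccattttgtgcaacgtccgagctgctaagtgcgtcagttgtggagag
Alyref, chr11:120598316-120598615, minus strand: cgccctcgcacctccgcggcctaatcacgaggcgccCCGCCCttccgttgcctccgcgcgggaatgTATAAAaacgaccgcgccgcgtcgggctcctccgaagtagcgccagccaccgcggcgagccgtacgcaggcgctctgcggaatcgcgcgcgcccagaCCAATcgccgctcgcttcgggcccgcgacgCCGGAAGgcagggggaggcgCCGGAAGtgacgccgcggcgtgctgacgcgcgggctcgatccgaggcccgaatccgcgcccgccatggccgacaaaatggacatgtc
Hnrnpl, chr7:28810640-28810939, plus strand: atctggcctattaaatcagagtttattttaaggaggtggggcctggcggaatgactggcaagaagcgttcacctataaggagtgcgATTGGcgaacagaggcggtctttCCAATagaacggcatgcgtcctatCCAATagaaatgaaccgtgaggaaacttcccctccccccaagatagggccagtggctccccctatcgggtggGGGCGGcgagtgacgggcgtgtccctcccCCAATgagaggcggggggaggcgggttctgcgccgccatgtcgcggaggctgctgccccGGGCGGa

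Hnrnpd holds an E-box in this window, and Alyref is the only one of the 5 shown with a TATA box. A window was found for 68 of 75 members, with 88 windows in all. The ETS letters occurred in 31.8% of the member windows, in 8.86% of all 32851 windows and in 17.4% of the 8947 windows of genes tested here. For the E-box the shares were 12.5%, 7.15% and 9.95%, and for the GC-box 62.5%, 35.7% and 62.7%. In the same order, CCAAT was found in 48.9%, 37.4% and 37.1%, TATAAA in 9.09%, 13.6% and 7.65%, the YY1 letters in 3.41%, 1.4% and 2.97%, and the NRF1 motif in 1.14%, 0.971% and 2%. A match is a description of the letters and shows no binding. The E-box windows belonged to 10 members: Hnrnpd, Hnrnpf, Prpf3, Prpf40b and Rbm15b, which were higher in captured cells of both studies, Hnrnpm, which was lower in both, and Hnrnph2, Prpf39, Rbm19 and Rbm43, which were past the threshold in study 2 alone. Among all 74 tested members 15 were higher in both (against 18.5% of all genes) and 3 lower in both (against 18%). The other motifs were not split by call, and whether calls go with a motif was not tested.

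Setting captured cells against whole granuloma asks what marks the plasma cells, and it was done in each cohort. In study 2, 24 of 74 members were higher in captured cells (32.4%, against 34.4% of all 8593 genes tested) and 27 were lower (36.5%, against 35.4%; limma, Benjamini-Hochberg adjusted p under 0.05). In study 1, 28 were higher (37.8%, against 31.5%) and 7 lower (9.46%, against 29%). The median difference of the members was −0.03 on the log2 scale in study 2 and 0.26 in study 1, beside −0.02 and 0.06 for all genes tested. Members past the threshold by at least 2-fold numbered 4 higher (5.41%, against 8.13%) and 7 lower (9.46%, against 10.8%) in study 2, and 6 higher (8.11%, against 8.47%) and 0 lower (against 13.7%) in study 1. The shares in study 2 were near those of all genes, and in study 1 the share of lower members was below that of all genes.

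The calls of the 2 studies were then set side by side. Higher in both were 15 members (20.3%, against 18.5% of all genes), lower in both 3 (4.05%, against 18%), and 16 passed in neither (21.6%, against 14.2%). Past the threshold in study 2 alone were 9 higher (12.2%, against 12.5%) and 14 lower (18.9%, against 12.9%), and in study 1 alone 3 higher (4.05%, against 8.48%) and 4 lower (5.41%, against 7.56%). Another 10 were higher in study 1 and lower in study 2 (13.5%, against 4.47%), and 0 took the reverse pattern (against 3.43%). The sign was the same in 45 members (60.8%, against 68.8%). Across the 74 members the differences of the 2 studies had a Pearson correlation of 0.08 and a Spearman correlation of 0.19, beside 0.57 and 0.53 across all 8593 genes; genes are not independent points and all arrays were normalized together. Without the array that stood apart, 29 members were higher and 26 lower in study 2 (against 38.6% and 35.9% of all genes), 31 and 9 in study 1 (against 35.9% and 31.7%), 19 higher and 4 lower in both (against 22% and 19.1%), and 9 and 2 opposite (against 5.52% and 4.83%).

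**Figure D1:**
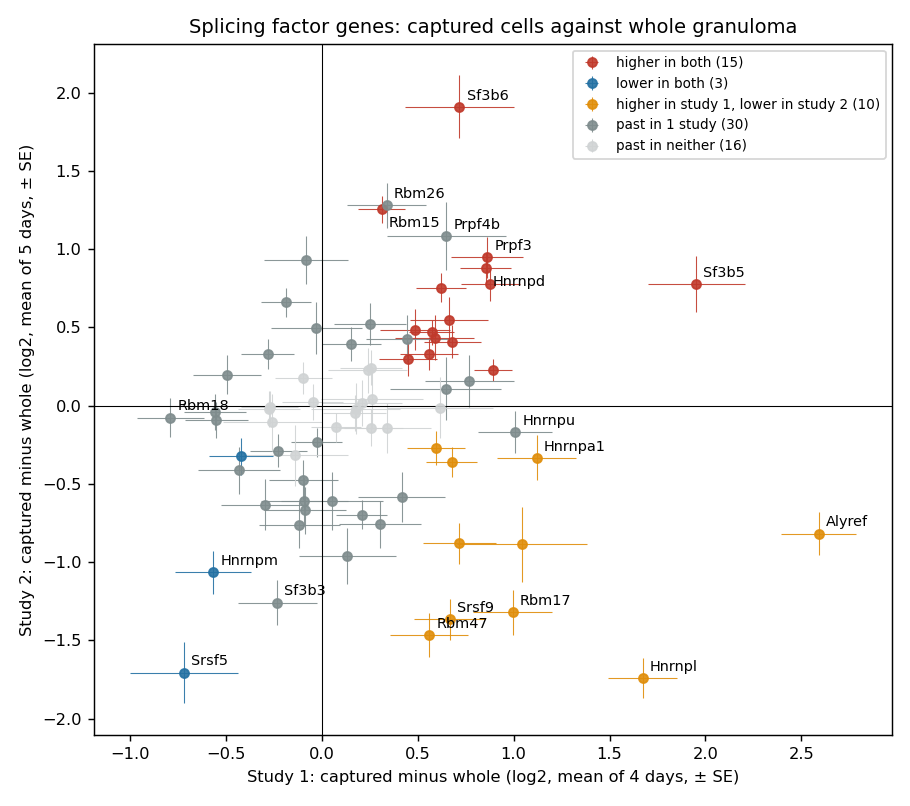
Each point is 1 of the 74 tested members, with its captured minus whole difference (log2, mean over days) in study 1 on the horizontal axis and in study 2 on the vertical axis, bars of 1 SE, and colour by its calls in both. The 15 members higher in both sit at the upper right with Sf3b6 highest, and Alyref, Hnrnpl and Rbm17 stand among the 10 opposite members at the lower right.

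The SF3b complex of the U2 snRNP, which clamps the branch site, held the largest increase of each study among the 15 members higher in both. Sf3b6, its small subunit next to the branch point adenosine, ranged over specimens from 8.56 through a median of 11.34 to 11.87 in captured cells of study 2 and from 8.15 through 9.04 to 10.67 in whole granuloma. In study 1 the levels were 9.92, 10.25 and 10.87 against 8.22, 9.84 and 10.04. The ranges overlapped in both studies, in study 2 through a single captured specimen, code 2 of day 49, which includes the array that stood apart. Without that array its captured levels began at 10.97, above every whole granuloma specimen. Sf3b6 differed by 1.91 (SE 0.20, limma adjusted p = 7.3e-11, higher in 14 of 15 specimens, 3.76-fold) in study 2 and by 0.72 (SE 0.28, adjusted p = 0.0283, 5 of 5 specimens, 1.64-fold) in study 1, and the difference between the studies passed too (1.51, SE 0.36). With the specimen as a fixed block the study 1 call was lost (adjusted p = 0.203). Its 2 other tested probe sets moved the same way in study 2 (1.98 and 1.82), and 1 of them passed in study 1 (1.01).

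Sf3b5, another small SF3b subunit, had its larger value in study 1. Its captured levels there were 8.22, 9.00 and 9.57 (lowest, median, highest) against 5.8, 6.99 and 7.94 in whole granuloma, with no overlap. In study 2 they were 8.14, 8.80 and 9.43 against 6.87, 7.86 and 9.85, and overlapped. The difference was 1.95 (SE 0.25, 5 of 5 specimens, 3.87-fold) in study 1 and 0.78 (SE 0.18, 13 of 15 specimens) in study 2. Sf3b2, which holds Sf3b4 on the complex, was at 7.49, 10.11 and 10.44 against 9.06, 9.48 and 10.00 in study 2 and 9.99, 10.70 and 10.98 against 9.83, 10.06 and 10.29 in study 1. It was higher by 0.43 (SE 0.14) and 0.59 (SE 0.21; adjusted p = 0.134 with the fixed block), but 2 of its other probe sets fell in study 2 (−0.80 and −0.93). The scaffold Sf3b3 took the other direction in study 2 (−1.26, SE 0.14, lower in 15 of 15 specimens) and did not pass in study 1 (−0.23, SE 0.21). Sf3b1, the largest subunit and a common target of mutation in blood cancers, was at −0.11 (SE 0.18) and −0.26 (SE 0.26). Sf3b1, Sf3b4 and Sf3a3 passed in neither study with the probe set used. Other probe sets did pass, for Sf3b4 in both studies (0.90 and 1.37) and for Sf3a3 in study 2 (1.61). Those of Sf3b1 were at 0.45 and −0.76 in study 2 and at −0.50 and −0.65 in study 1, all past the threshold. Over the 9 SF3 genes, study 2 had 3 higher and 2 lower, and study 1 had 5 higher and 0 lower. Beside these and the other family counts, study 2 called 34.4% of all genes higher and 35.4% lower, and study 1 31.5% and 29%.

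Sm ring and snRNP proteins (Snrp genes) numbered 7. Of these, 2 were higher and 1 lower in study 2 and 4 and 1 in study 1. Snrpg, a member of the Sm ring, was at 9.95, 12.70 and 13.12 against 11.34, 12.14 and 12.86 in study 2 and 12.05, 12.41 and 13.12 against 11.43, 11.72 and 12.05 in study 1 (lowest, median and highest, captured against whole). It was higher by 0.55 (SE 0.14, 14 of 15 specimens) and 0.66 (SE 0.20, 5 of 5 specimens; adjusted p = 0.0799 with the fixed block), and its other probe set rose as well (0.55 and 2.40). Snrpa1, a protein of the U2 snRNP, was at 9.85, 10.30 and 10.74 against 9.48, 9.93 and 10.63 in study 2 and 10.27, 10.79 and 11.45 against 9.76, 10.28 and 11.14 in study 1 and was higher by 0.30 (SE 0.11) and 0.45 (SE 0.15). Snrpe, also of the Sm ring, rose in study 1 (0.77, SE 0.23, ranges apart) and was at 0.16 (SE 0.16) in study 2. Its difference between the studies did not pass (−0.44, SE 0.30, adjusted p = 0.235). Without the array that stood apart, Snrpe was higher in study 2 too (0.37, limma adjusted p = 0.000157), and the study difference passed (−0.44, limma adjusted p = 0.0145). Snrpd3, the Sm protein D3, was opposite (−0.88, SE 0.13, in study 2 and 0.72, SE 0.19, in study 1). Snrpb and Snrpc, proteins of the Sm ring and of the U1 snRNP, passed in neither study, but Snrpb was higher in study 2 without the array that stood apart (0.33).

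Tri-snRNP and U1-associated genes (Prpf) were split. Prpf3, which binds the U4/U6 snRNP, was at 7.54, 8.11 and 9.65 in captured cells of study 2 against 6.73, 7.20 and 7.59 in whole granuloma, and at 8.03, 8.88 and 9.15 against 7.26, 7.88 and 8.76 in study 1. In study 2 all captured specimens but the lowest reached or passed the highest of whole granuloma, and in study 1 the ranges overlapped. It differed by 0.95 (SE 0.13, adjusted p = 4.4e-08, 15 of 15 specimens) and 0.86 (SE 0.19, adjusted p = 0.000137, 4 of 5). The levels of Prpf38b were 7.67, 9.01 and 9.79 against 7.76, 8.14 and 8.56 in study 2 and 9.77, 9.99 and 10.36 against 8.54, 9.10 and 9.48 in study 1. Those of Prpf40b were 4.87, 5.10 and 5.65 against 4.59, 4.92 and 5.17 in study 2 and 5.38, 5.64 and 5.96 against 4.40, 4.70 and 5.02 in study 1. Prpf38b (0.78, SE 0.11, and 0.88, SE 0.15) and the U1-associated Prpf40b (0.23, SE 0.07, and 0.89, SE 0.10) were higher in both, each with ranges apart in study 1, although another Prpf38b probe set fell in study 1 (−0.51). The signal of Prpf40b was low. As deposited, its day means in study 1 were 4.91 to 5.10 in captured cells (array medians 4.973 to 5.111) and 4.42 to 4.90 in whole granuloma (5.727 to 5.825). Prpf6, which bridges the parts of the tri-snRNP, was at 7.65, 8.28 and 9.05 against 7.89, 8.69 and 9.08 in study 2 and 7.72, 8.14 and 8.42 against 8.03, 8.41 and 9.17 in study 1, with wide overlap. It was lower in both (−0.32, SE 0.12, and −0.42, SE 0.17; adjusted p = 0.0671 and 0.245 with the fixed block), where 2 other probe sets rose in study 1 (1.49 and 1.22). Prpf31 (−0.76, SE 0.15), Prpf38a (−0.61, SE 0.16) and the catalytic core protein gene Prpf8 (−0.41, SE 0.15) fell in study 2 and did not pass in study 1. The kinase gene Prpf4b (1.08, SE 0.22) and Prpf39 (0.50, SE 0.17) rose in study 2. Without the array that stood apart, Prpf8 (−0.44) and Prpf4b (0.65) passed in study 1 too. With all arrays, 2 of the 5 other Prpf4b probe sets were lower in study 1 (−1.04 and −0.50), and none was higher.

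SR protein genes moved in both directions. Srsf5 was at 6.37, 9.38 and 9.95 in captured cells of study 2 against 9.79, 10.65 and 12.21 in whole granuloma, and at 10.08, 10.63 and 11.57 against 10.90, 11.32 and 12.55 in study 1. The lowest value was again code 2 of day 49, and without the array that stood apart the captured levels began at 8.53. In study 2 captured levels lay mostly below those of whole granuloma, and in study 1 the ranges overlapped, with the highest captured level above the median of whole granuloma. Srsf5 differed by −1.70 (SE 0.20, adjusted p = 7.8e-10, lower in 14 of 15 specimens, 3.26-fold) and −0.72 (SE 0.28, adjusted p = 0.0256, 5 of 5), and the difference between the studies passed (−0.94, SE 0.36, adjusted p = 0.0297). With the fixed block the study 1 call was lost (adjusted p = 0.106). Srsf5 was the only Srsf gene lower in both, and Srsf1, the founding SR protein and a known Myc target, the only one higher in both (0.41, SE 0.10, and 0.68, SE 0.15). Srsf1 was at 11.40, 11.65 and 12.00 against 10.33, 11.24 and 11.94 in study 2 and 11.76, 11.95 and 12.53 against 10.91, 11.32 and 11.92 in study 1, with overlap in both. Of 5 other Srsf1 probe sets, 2 rose and 3 fell in study 2 (−2.05 to 1.07), so that its direction there depends on the probe set.

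With the probe sets used, Srsf6 (0.66, SE 0.09, 15 of 15 specimens), Srsf11 (0.93, SE 0.15) and Srsf3 (0.33, SE 0.10) were higher in study 2 and not in study 1 (−0.19, −0.08 and −0.28). Each of these differences between the studies passed (0.85, 1.22 and 0.58). The other Srsf11 probe set was higher in both studies (1.34 and 1.06). Of 5 other Srsf3 probe sets, 2 rose (0.75 and 0.47) and 2 fell (−0.54 and −0.86) in study 1. The 2 others of Srsf6 were at 0.03 and 0.49 in study 2. Srsf9 was lower in study 2 (−1.36, SE 0.13, 15 of 15 specimens) and higher in study 1 (0.67, SE 0.19). Srsf10, a splicing repressor when dephosphorylated, Srsf4 and Srsf2 were lower in study 2 (−0.96, −0.67 and −0.29), but the other tested probe sets of Srsf10 were higher there (0.49 to 0.69), as were 2 of the 3 of Srsf2 (0.83 and 0.93). In all, 4 of 9 Srsf genes rose and 5 fell in study 2, and 2 and 1 did in study 1.

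Among the Hnrnp genes, the AU-rich element binding protein gene Hnrnpd (AUF1) had nearly the same difference in both studies. Its levels were 8.79, 9.42 and 9.94 in captured cells of study 2 against 7.90, 8.57 and 9.20 in whole granuloma, and 9.58, 10.08 and 10.38 against 8.99, 9.33 and 9.52 in study 1. The ranges overlapped in study 2 and not in study 1. Hnrnpd differed by 0.88 (SE 0.09, adjusted p = 1.2e-10, 15 of 15 specimens, 1.84-fold) and by 0.85 (SE 0.13, adjusted p = 1.0e-06, 5 of 5, 1.81-fold), and the difference of 0.06 (SE 0.17) between the studies did not pass. Its paralog Hnrnpdl was at 11.16, 11.71 and 12.34 against 10.25, 10.97 and 11.49 in study 2 and 12.28, 12.74 and 12.92 against 11.89, 12.14 and 12.36 in study 1, again mostly higher in captured cells (0.75, SE 0.09, and 0.62, SE 0.13). Hnrnpf, which binds G-rich tracts, was at 11.39, 11.61 and 11.85 against 10.60, 11.14 and 11.54 in study 2 and 10.62, 11.22 and 11.88 against 10.51, 10.71 and 10.99 in study 1. It was higher too (0.47 and 0.57), while 2 of its 3 other probe sets fell in both studies (−1.40 and −1.66 in study 2, −1.31 and −1.44 in study 1).

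Hnrnpm was lower in both studies. Its levels were 6.72, 8.74 and 9.26 in captured cells of study 2 against 8.85, 9.86 and 10.31, and 8.40, 8.78 and 9.56 against 9.05, 9.40 and 10.13 in study 1. Captured specimens were mostly the lower ones, and the ranges overlapped in both studies. The difference was −1.06 (SE 0.14, lower in 14 of 15 specimens, 2.09-fold) and −0.57 (SE 0.20, adjusted p = 0.0133, 4 of 5; 0.187 with the fixed block). Hnrnph2 was the only member with all captured specimens of study 2 below all whole granuloma specimens (8.19 to 9.11 against 9.27 to 9.99, 1.35% of members, against 2.56% of all genes). Without the array that stood apart its captured levels began at 8.77 and the ranges overlapped. Hnrnph2 differed by −0.70 (SE 0.09) in study 2 and did not pass in study 1 (0.21, SE 0.13). The scaffold gene Hnrnpu rose in study 1 (1.01, SE 0.19) and not in study 2 (−0.17, SE 0.14). Hnrnpll, which steers alternative splicing in lymphocytes and plasma cells, fell in study 1 (−0.55, SE 0.16, 5 of 5 specimens) and was at −0.09 (SE 0.12) in study 2. The abundant nuclear proteins Hnrnpa2b1, Hnrnpc and Hnrnpk passed in neither study with the probe set used, with differences between −0.32 and 0.18. Hnrnpc was higher in study 2 without the array that stood apart (0.20), but its other probe set was lower in both studies (−1.10 and −1.24). Other probe sets of Hnrnpk passed at −0.84 and −0.29 in study 2 and at 0.50, −0.30 and 1.34 in study 1. Another Hnrnpa2b1 probe set passed at −0.30 in study 2 and 2.26 in study 1. Over the 18 Hnrnp genes, study 2 had 3 higher and 8 lower, and study 1 had 6 higher and 2 lower.

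Rbm genes are grouped by name and differ in function. Rbm15, an adapter of the complex that methylates adenosines in RNA, was at 7.38, 8.06 and 8.60 in captured cells of study 2 against 6.27, 6.70 and 7.70, and differed by 1.25 (SE 0.09, adjusted p = 7.2e-16, 15 of 15 specimens, 2.38-fold). In study 1 its levels were 8.28, 8.47 and 8.83 against 7.95, 8.17 and 8.51, a difference of 0.31 (SE 0.12, 4 of 5; adjusted p = 0.173 with the fixed block). The tissues overlapped little in study 2 and widely in study 1, and the study difference passed (0.96, SE 0.16). Its paralog Rbm15b was at 5.11, 5.48 and 7.60 against 4.56, 5.13 and 5.42 in study 2 and 5.34, 5.93 and 6.33 against 5.12, 5.42 and 5.77 in study 1, and the exon junction complex gene Rbm8a at 8.47, 10.00 and 10.40 against 8.83, 9.71 and 10.21 in study 2 and 9.72, 10.32 and 10.67 against 9.28, 9.63 and 10.03 in study 1. Both overlapped between the tissues. The signal of Rbm15b was low, with deposited day means of 5.01 to 5.46 in captured cells of study 2 (array medians 5.309 to 5.641). Rbm15b (0.49, SE 0.13, and 0.48, SE 0.18; adjusted p = 0.0698 in study 1 with the fixed block) and Rbm8a (0.33, SE 0.11, and 0.56, SE 0.15) were higher in both, the latter with another probe set lower in study 2 (−0.45). Rbm26 rose in study 2 (1.28, SE 0.14, 15 of 15 specimens), as did its 2 other probe sets (1.97 and 1.56), and was at 0.34 (SE 0.21) in study 1. Rbm5, a splicing regulator, fell in study 2 with the probe set used (−0.76, SE 0.15, 15 of 15 specimens), whereas 3 other probe sets rose (0.38 to 1.81). Rbm18 (−0.79, SE 0.17) and Rbm22 (−0.56, SE 0.16), a protein of the activated spliceosome, fell in study 1 and were near 0 in study 2 (−0.08 and −0.04). Over the 20 tested Rbm genes, study 2 had 7 higher and 6 lower, and study 1 had 7 higher and 2 lower.

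**Figure D2:**
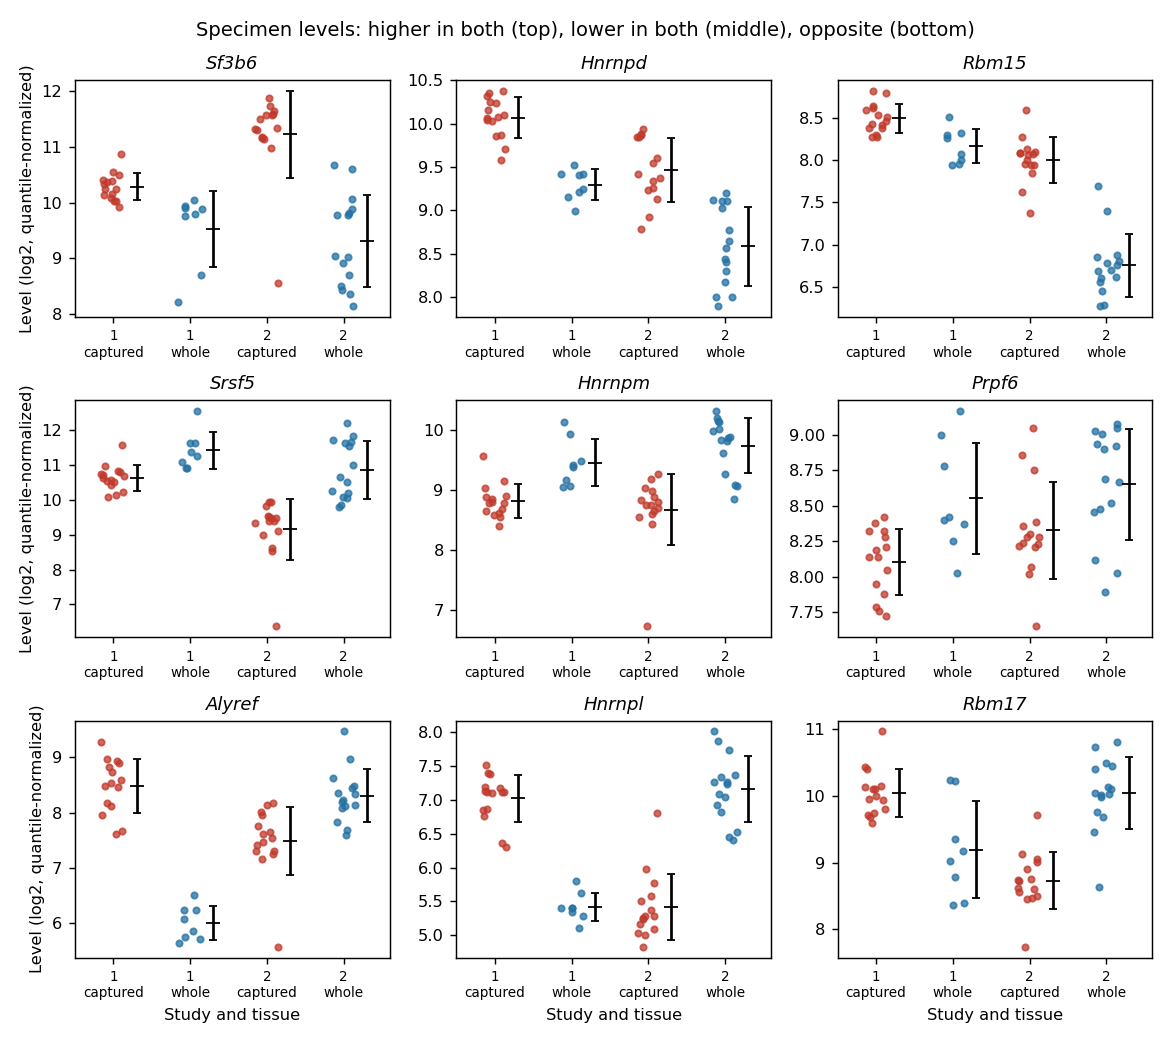
Each point is the level of 1 specimen (log2, quantile-normalized) of 9 members, by study and tissue (red captured, blue whole), with the mean and SD at the side. Sf3b6, Hnrnpd and Rbm15 are higher in captured cells of both studies, Srsf5, Hnrnpm and Prpf6 lower, and Alyref, Hnrnpl and Rbm17 change sides between the studies.

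The 10 opposite members included the largest difference of study 1 and the largest differences between the studies. Alyref, the adapter that hands spliced mRNA to the export receptor, was at 7.62, 8.54 and 9.28 in captured cells of study 1 against 5.64, 5.96 and 6.50 in whole granuloma. In study 2 it was at 5.57, 7.54 and 8.17 against 7.59, 8.22 and 9.47. The groups did not overlap in study 1, with captured cells above, and overlapped in study 2, with captured cells below. The difference was 2.59 (SE 0.20, adjusted p = 1.3e-13, higher in 5 of 5 specimens, 6.02-fold) in study 1 and −0.82 (SE 0.14, adjusted p = 1.9e-06, lower in 14 of 15, 1.76-fold) in study 2. The study difference over the 4 shared days was −3.34 (SE 0.25). Alyref kept these signs on every day (2.35 to 2.92 in study 1, −1.08 to −0.57 in study 2).

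Hnrnpl, which binds CA repeats and controls the inclusion of many exons, was at 6.30, 7.12 and 7.51 in captured cells of study 1 against 5.11, 5.40 and 5.8. In study 2 it was at 4.83, 5.28 and 6.81 against 6.40, 7.23 and 8.01. Captured cells were above whole granuloma in study 1 with no overlap, and below it in study 2, where only code 2 of day 49 reached the range of whole granuloma. The difference was 1.67 (SE 0.18, 5 of 5 specimens, 3.19-fold) and −1.74 (SE 0.13, lower in 14 of 15, 3.34-fold), and the study difference was the largest of the set (−3.62, SE 0.23). Rbm17, a factor in the choice of 3-prime splice sites, was at 9.59, 10.00 and 10.97 against 8.36, 9.10 and 10.24 in study 1 and at 7.74, 8.72 and 9.72 against 8.64, 10.05 and 10.81 in study 2 (1.00, SE 0.21, and −1.32, SE 0.14). Its ranges overlapped in both studies, and all 15 pairs of study 2 were lower.

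The other opposite members were Hnrnpa1, an exon repressor (1.12 in study 1, −0.33 in study 2), Rbm38, a p53 target (0.68 and −0.36), Rbm39, a U2AF-like factor (1.04 and −0.89), Rbm47, a cofactor of RNA editing (0.56 and −1.47), Sf3a1 (0.60 and −0.27), Snrpd3 and Srsf9. A study difference is nearly fixed by opposite calls, so its values in these 10 are a description. In captured cells of study 2, Rbm38 and Rbm47 had deposited day means of 4.4 to 4.74 and 3.75 to 4.33, below the array medians (5.309 to 5.641). With the specimen as a fixed block, Hnrnpa1, Rbm39 and Sf3a1 lost a call. Hnrnpa1 also lost a call with no replicate block, and in study 2 without the array that stood apart (−0.30, limma adjusted p = 0.0551). Rbm39 was at 5.57, 6.87 and 8.00 against 6.26, 7.86 and 9.47 in study 2 and 8.45, 9.58 and 10.33 against 7.23, 8.91 and 9.41 in study 1, with overlap in both. Of its 9 probe sets, 4 fell and 5 rose in study 2, while none was lower in study 1. Another probe set of Sf3a1 rose in study 2 (0.52), and of the 2 others of Snrpd3 there, 1 rose (0.70) and 1 fell (−1.21). The study difference was not carried by the same tissue in each gene: levels in whole granuloma were higher in study 2 than in study 1 by 2.30 for Alyref, 1.77 for Snrpd3 and 1.73 for Hnrnpl, and the same difference in captured cells was −0.99, 0.08 and −1.61. For Rbm47 the captured cells differed by −1.71 and whole granuloma by 0.20. The studies are separate cohorts, and cohort, handling and array series cannot be told apart.

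In total 27 members, the 10 opposite ones among them, passed the test of the study difference (36.5%, against 44.8% of all genes), 19 with a lower value in study 2 (25.7%, against 22%) and 8 with a higher one (10.8%, against 22.8%), and 33 did without the array that stood apart (against 53.1%). In study 1, captured cells were above whole granuloma with no overlap in 7 members (9.46%, against 10.2%): Alyref, Hnrnpd, Hnrnpl, Prpf38b, Prpf40b, Sf3b5 and Snrpe. Below without overlap were 0 (against 9.18%). In study 2, 0 members were above without overlap (against 2.32%), and 2 were without the array that stood apart, Sf3b6 and Srsf11 (2.7%, against 4.31%), where 1 was below, Hnrnpl (1.35%, against 3.11%).

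**Figure D3:**
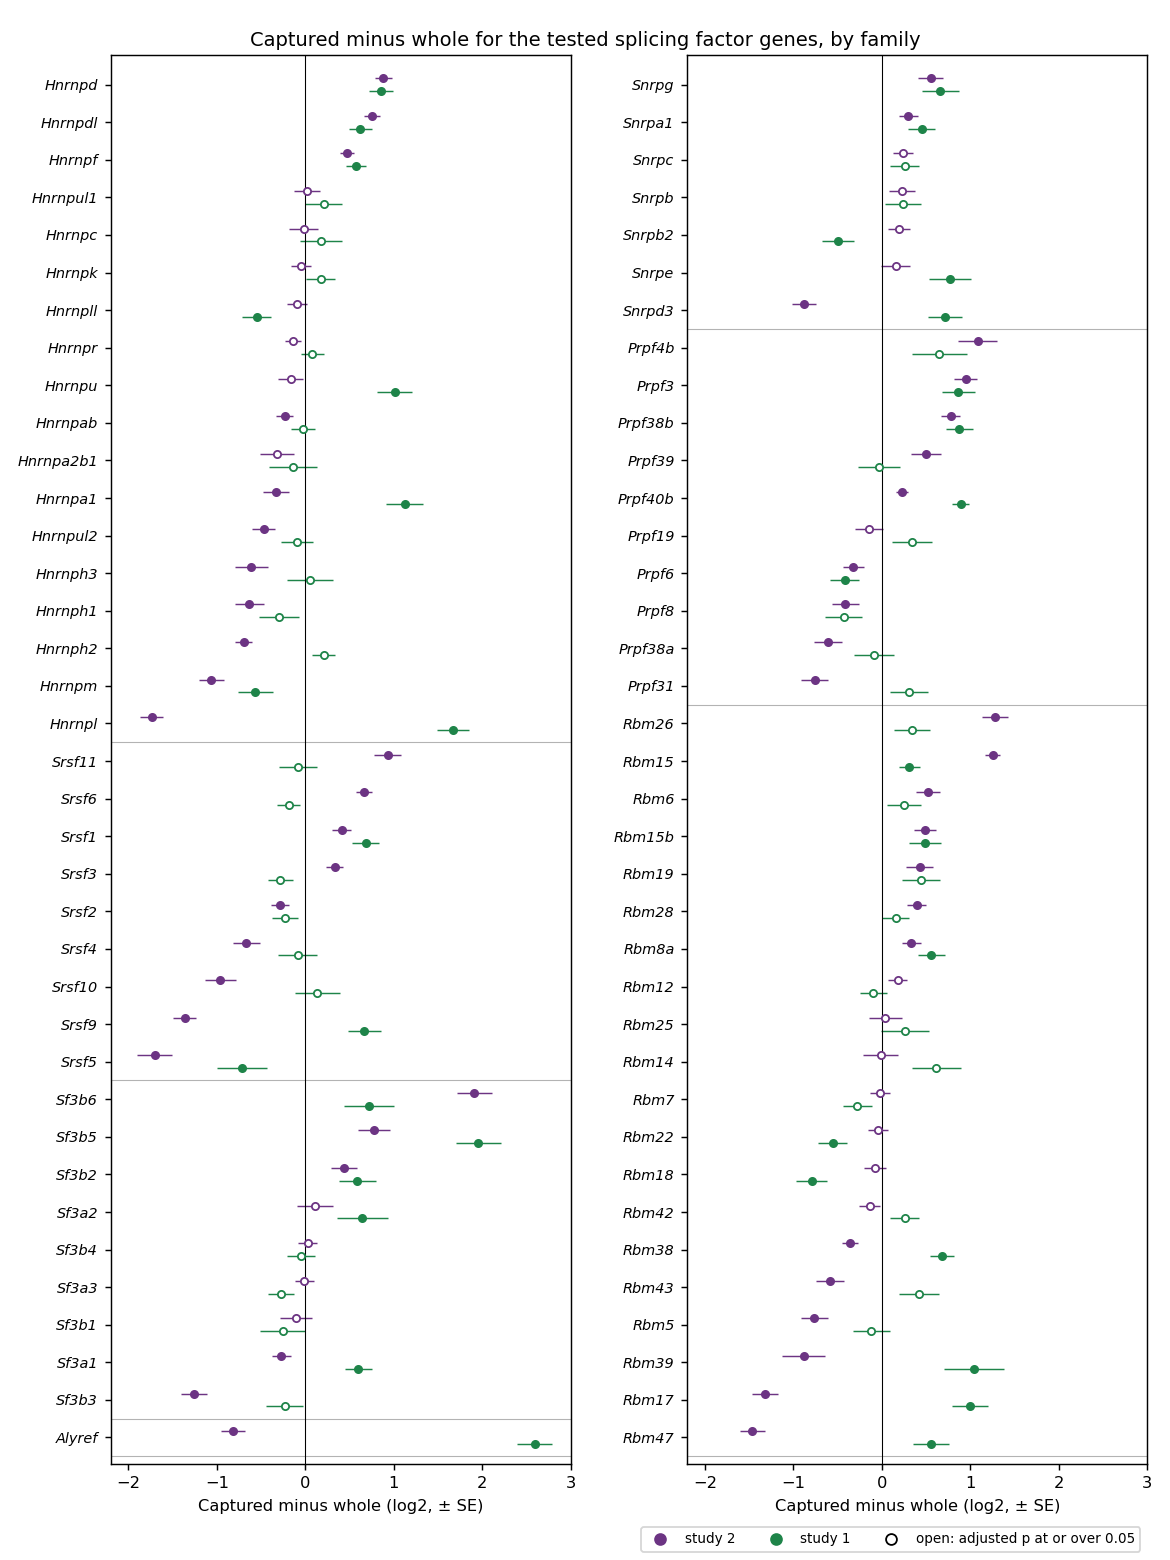
Captured minus whole differences (log2, with bars of 1 SE) of the 74 tested members by family, in study 2 (purple) and study 1 (green), with open circles for an adjusted p of 0.05 or more. Values above and below 0 occur in each family of more than 1 gene, and Hnrnpl and Alyref have the widest gaps between the studies.

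The direction of these differences rests on the scaling. On the values as deposited, where the captured minus whole difference of the median gene was −1.68 in study 2 and −0.60 in study 1, 1 member was higher and 72 lower in study 2 (against 0.512% and 96.3% of all genes), and none of the 15 members remained higher in both. Relative to the median gene, all 15 kept their sign in both studies, as did the 3 lower and the 10 opposite members. With each array centred on its median, 43 were higher and 16 lower in study 2 (against 45.7% and 27.1% of all genes), the 15 kept both calls and the 3 kept none. With the 3-prime to 5-prime difference as a covariate, 5 of the 15 kept both calls (Hnrnpd, Hnrnpdl, Hnrnpf, Prpf3 and Rbm15b), as did 2 of the 3 lower (Hnrnpm and Srsf5) and 4 of the 10 opposite members (Alyref, Hnrnpl, Rbm17 and Srsf9). Sf3b6 was then at 0.83 (adjusted p = 0.228) in study 2 and 0.15 (adjusted p = 0.769) in study 1.

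Probe sets of 1 gene often disagreed. The array held 189 member probe sets, and 45 members had more than 1 that was tested. In study 2, 29 of these 45 were past the threshold with the probe set used, and in 17 of the 29 another probe set passed in the opposite direction: Hnrnpab, Hnrnpf, Hnrnph1, Hnrnpul2, Prpf31, Prpf4b, Rbm28, Rbm39, Rbm5, Rbm6, Rbm8a, Sf3a1, Sf3b2, Snrpd3, Srsf1, Srsf10 and Srsf2. In study 1 it was 7 of 19: Hnrnpf, Hnrnpu, Prpf38b, Prpf6, Rbm18, Snrpb2 and Srsf1. Members that did not pass in a study with the probe set used are outside these counts, although other probe sets of some of them passed. Examples in study 2, with the probe set used before the opposite one, were Hnrnph1 (−0.63 and 0.40), Hnrnpul2 (−0.47 and 0.78), Prpf31 (−0.76 and 0.79), Prpf4b (1.08 and −1.09), Rbm28 (0.39 and −0.97), Rbm6 (0.52 and −0.81) and Hnrnpab (−0.23 and up to 1.67), and in study 1 Hnrnpu (1.01 and −1.06), Rbm18 (−0.79 and 0.45) and Snrpb2 (−0.50 and 1.84). Hnrnpu showed the widest gap in study 2, where its 5 probe sets ran from −1.69 to 2.56. Hnrnpa2b1 was at −0.14 in study 1 with the probe set used and at 2.26 with another. With the mean over all probe sets, 8 of the 15 members stayed higher in both studies (Hnrnpd, Prpf3, Prpf40b, Rbm15, Rbm15b, Sf3b5, Sf3b6 and Snrpg). Which transcript forms the probe sets measure was not tested.

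**Figure D4:**
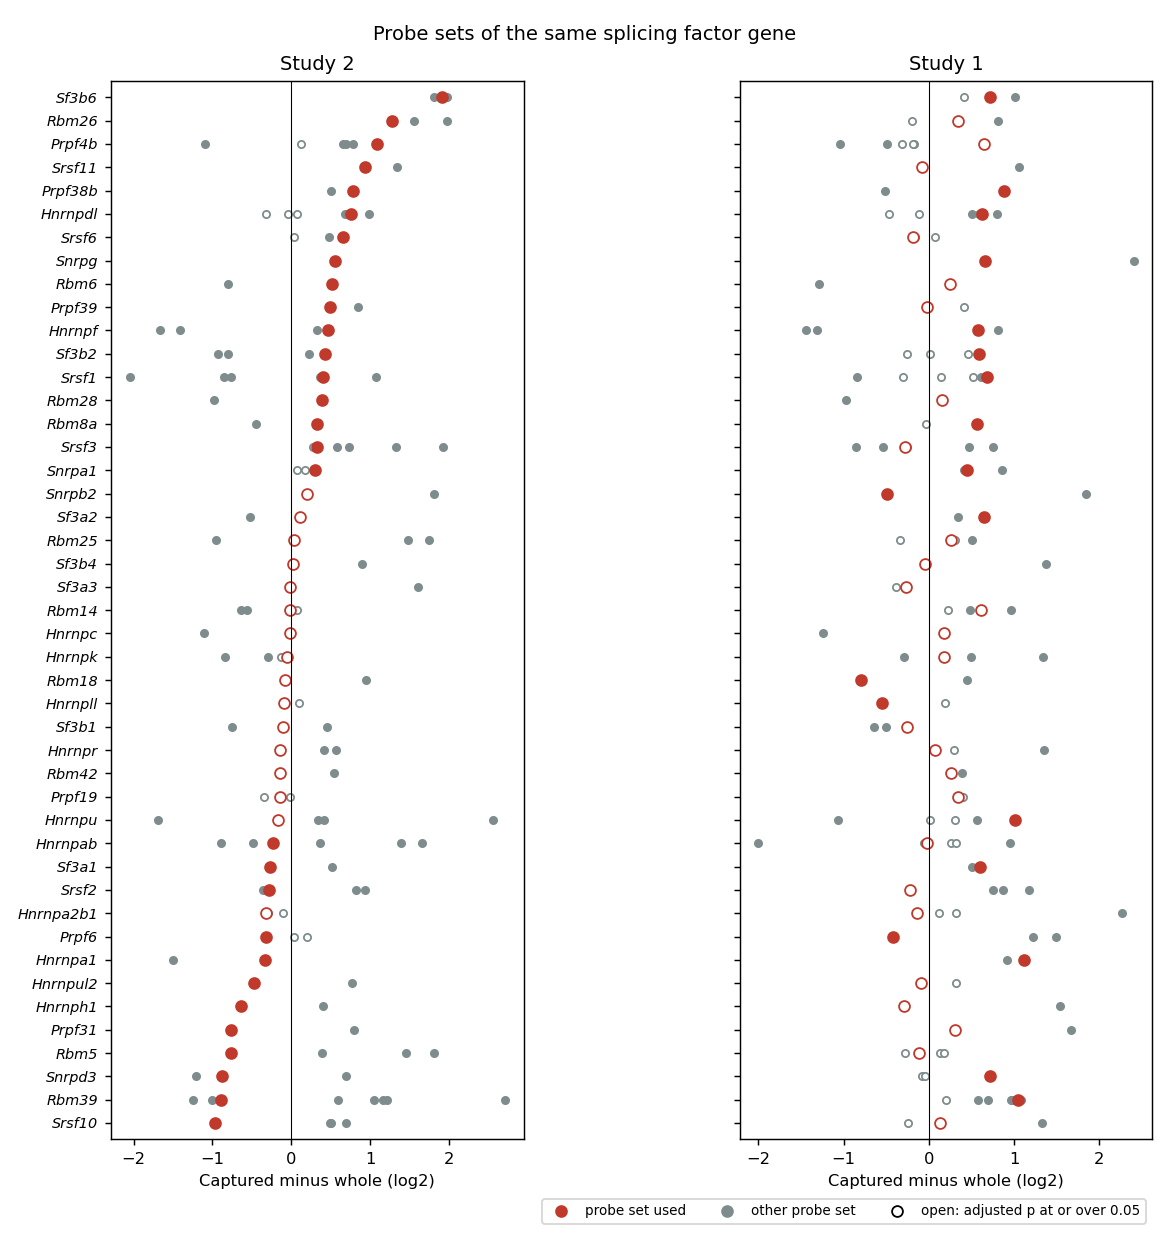
Captured minus whole differences (log2) of the probe sets of the 45 members with more than 1 tested, in study 2 (left) and study 1 (right), with the probe set used in red and the others in grey, and open circles for an adjusted p of 0.05 or more. Sf3b6 and Rbm26 probe sets lie on 1 side in study 2, whereas those of Hnrnpu, Hnrnpab, Srsf1 and Rbm39 lie on both sides.

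Changes over the days after pristane were tested within each tissue and study on the values as deposited. In captured cells of study 2 the days differed for 9 members (12.2%, against 15.2% of all genes; limma F test): Hnrnpc, Hnrnpd, Prpf19, Prpf4b, Rbm25, Rbm7, Sf3b1, Snrpb2 and Snrpg. Without the array that stood apart it was 6 (8.11%, against 15.4%): Prpf19, Prpf4b, Rbm25 and Rbm7 stayed and Hnrnpr and Rbm42 joined. Leaving out code 1 or code 3 of day 49 raised the count to 34 (against 34.8% and 33.9% of all genes), leaving out code 1 of day 105 gave 14 (against 17.1%), and leaving out each of 13 others gave 5 (against 9.82% to 14.6%; in study 2 code 2 of day 17, codes 1 and 2 of day 33, code 2 of day 49 and code 3 of day 105, and 8 specimens of study 1). In whole granuloma of study 2 it was 12 (16.2%, against 24.4%): Hnrnpd, Hnrnpll, Prpf19, Rbm15, Rbm25, Rbm43, Rbm47, Rbm8a, Sf3b6, Snrpb2, Srsf2 and Srsf5. This count was 24 without the array that stood apart (32.4%, against 35.7%), 19 without code 3 of day 49 (against 33.2%), and between 3 and 7 (against 11.4% to 23.4%) without code 2 or 3 of day 105, code 3 of day 17, any specimen of day 33, or code 2 or 3 of day 7.

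Rbm7, part of the complex that leads nuclear RNA to the exosome, rose in captured cells of study 2. Its specimens were at 9.36, 10.13 and 10.39 at day 7 and at 11.10, 11.17 and 11.25 at day 105, with day means of 10.43, 10.79 and 10.28 in between. All day 105 specimens were above all day 7 specimens, and the path was not even. The difference of day 105 and day 7 was 1.21 (SE 0.24, adjusted p = 0.0012). In whole granuloma it was 0.53 (SE 0.24, adjusted p = 0.119). Whether this change differs between the tissues was not tested.

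Rbm25, a regulator of alternative splicing that acts on the apoptosis gene Bcl2l1, fell in captured cells and rose in whole granuloma. In captured cells its specimens were at 7.58, 8.40 and 10.61 at day 7 and at 6.66, 7.04 and 7.77 at day 105, so that the groups overlapped and code 1 of day 7 stood high. An array of this code had the lowest mean correlation (0.85) after the array that stood apart. The difference was −1.71 (SE 0.45, adjusted p = 0.0147), and neither Rbm7 (0.91, adjusted p = 0.0535) nor Rbm25 (−0.84, adjusted p = 0.411) passed without code 1 of day 7 (against 1.49% of all genes). Rbm25 did not pass without code 1 or code 2 of day 105 either (−1.46, adjusted p = 0.0616, and −1.65, adjusted p = 0.0634), and its mean over all probe sets differed by −0.35 (adjusted p = 0.559). In all, 4 members passed without code 3 of day 7 (against 9.32%). In whole granuloma it was at 8.70, 8.76 and 9.03 at day 7 and at 9.32, 10.38 and 10.96 at day 105 (1.39, SE 0.45, adjusted p = 0.0252). These were the only members past the threshold for day 105 against day 7 in captured cells, 1 higher (1.35%, against 4.43%) and 1 lower (1.35%, against 2.36%), and Hnrnpr (0.72) and Rbm12 (0.73) joined without the array that stood apart (4 members, against 11.2%).

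Prpf19, the ubiquitin ligase of the active spliceosome, fell in whole granuloma. Its specimens were at 11.92, 12.45 and 12.65 at day 7, with means of 11.67, 10.28 and 10.70 at days 17, 33 and 49, and at 10.85, 10.94 and 11.25 at day 105. All day 105 specimens were below all day 7 specimens, with the lowest values at day 33. The difference was −1.33 (SE 0.38, adjusted p = 0.0113). Hnrnpll was at 10.86, 10.92 and 11.05 at day 7 and at 11.43, 11.91 and 12.10 at day 105, with no overlap. Srsf2, an SR protein gene whose days differed most after Prpf19, was at 11.61, 11.71 and 11.78 at day 7, at 10.71, 10.80 and 10.91 at day 49 and at 11.89, 11.94 and 12.05 at day 105, lowest at day 49. Hnrnpll (0.87, SE 0.30, adjusted p = 0.0378), Rbm47 (1.29, SE 0.36, adjusted p = 0.00937) and Srsf5 (1.25, SE 0.43, adjusted p = 0.0374) rose with Rbm25, which made 4 higher (5.41%, against 6.05%) and 1 lower (1.35%, against 12.9%). Without code 2 of day 105 none of the 5 passed (against 9.58% of all genes), without 1 of the codes of day 7 or code 3 of day 105 it was 2 or 3 (against 10.9% to 17.8%), and without the array that stood apart 8 did (against 24.3%).

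**Figure D5:**
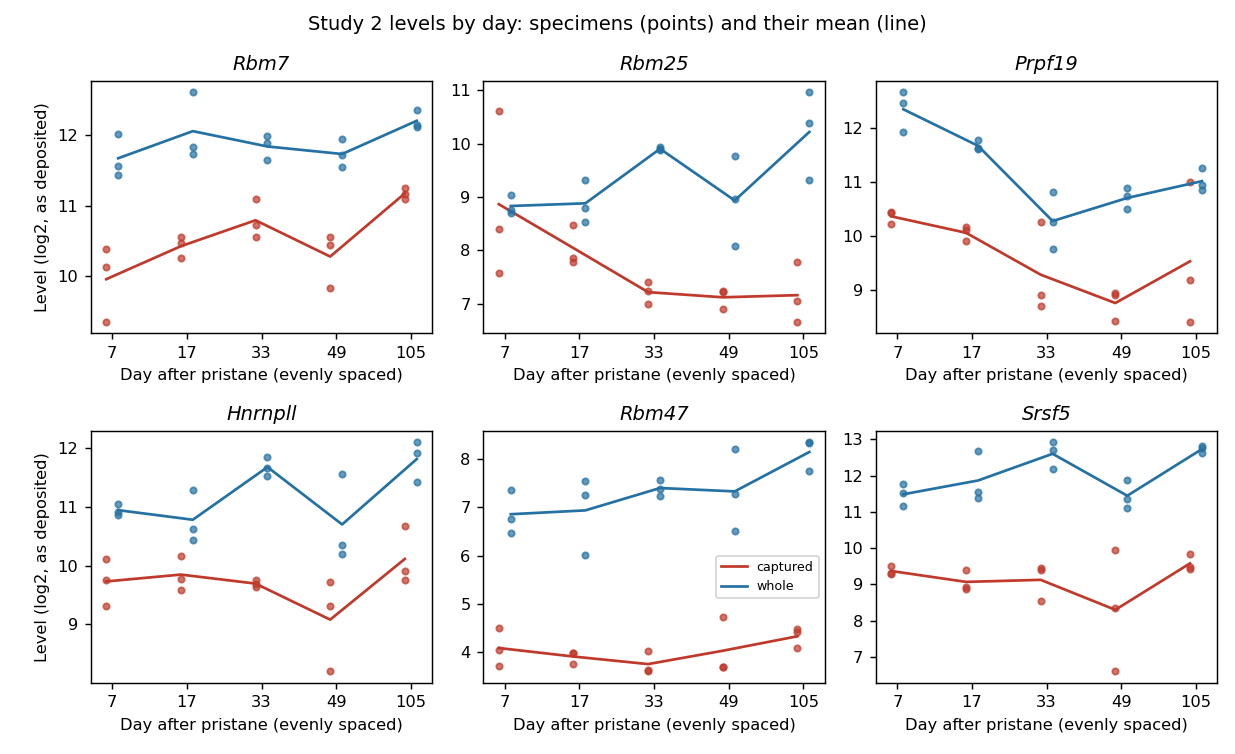
Specimen levels (points, log2 as deposited) and their means (lines) of 6 members on days 7, 17, 33, 49 and 105 of study 2, in captured cells (red) and whole granuloma (blue); the days are spaced evenly. Rbm7 is higher at day 105 than at day 7 in captured cells, Rbm25 falls there and is higher in whole granuloma, and Prpf19 is lowest in whole granuloma at day 33.

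In study 1 the days differed for 0 members in captured cells (against 0.594% of all genes) and 0 in whole granuloma (against 0.0349%; limma). At an unadjusted p under 0.05 it was 8 of 74 (10.8%, against 10.3%) and 1 of 74 (1.35%, against 3.18%). Without the array of study 2 that stood apart, which shares the estimate of spread, Alyref and Hnrnpf passed in captured cells (2.7%, against 1.93%). Day 104 of study 1 rests on 1 specimen of each tissue.

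Other genes of the splicing machinery, from 4 lists without the members, were set beside these results. Spliceosome and mRNA export genes numbered 75, of which 36 rose (48%, against 34.4% of all genes) and 22 fell (29.3%, against 35.4%) in study 2, and 43 (57.3%, against 31.5%) and 4 (5.33%, against 29%) in study 1. In both, 24 rose (32%, against 18.5%) and 4 fell (5.33%, against 18%), and 10 took opposite directions (13.3%, against 4.47% and 3.43% for each order). The U6 ring gene Lsm3 (2.04, SE 0.16, and 1.08, SE 0.22), the THO complex gene Thoc1 (1.38 and 0.78) and Bud31 (1.37 and 0.52) were among the shared increases, and Tra2b (−0.67 and −0.97), Puf60 (−0.62 and −0.38) and Crnkl1 (−0.55 and −1.10) the decreases. Of 34 other regulators of splicing 11 were higher and 10 lower in study 2 (32.4% and 29.4%), and 8 and 6 in study 1 (23.5% and 17.6%), with Syncrip (1.20 and 0.43), Rbmxl1 (1.11 and 0.54) and Dazap1 (0.45 and 1.23) higher and Rbfox2 (−1.04 and −0.88), Raly (−0.59 and −0.90) and Ybx1 (−0.34 and −0.47) lower in both. Of the 8 kinases of SR proteins, 3 were higher and 1 lower in study 2 (37.5% and 12.5%) and 4 and 0 in study 1, with Srpk1 (0.83 and 1.07) and Clk3 (0.25 and 0.82) higher in both. Of 11 genes of snRNP assembly, 5 were higher and 4 lower in study 2 (45.5% and 36.4%), and 4 and 1 in study 1 (36.4% and 9.09%), with Ddx20 (0.85 and 1.55) and Gemin2 (0.72 and 0.78) of the SMN complex and the U6 recycling gene Sart3 (0.40 and 0.80) higher in both.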

How the data were processed

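RNA of 82 samples was measured on Affymetrix mouse arrays. The authors deposited log2 values. The submitters' processing notes name RMA and Partek, without versions. The values of 22690 probe sets ran from 2.202 to 15.065. Of these probe sets, 20393 have 1 gene symbol, 691 several and 1606 none, and 20364 probe sets were matched by gene ID to RefSeq. The 9 rule symbols found only on probe sets shared by genes were not used.

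Arrays of 1 specimen, tissue and day were averaged, which gave 53 averages of 33 specimens in 19 groups. In study 1, a captured array of day 33 without a code was counted as a specimen of its own. Code 003 of day 7 was counted apart from code 3, and the arrays of code 5 of day 7 as 1 specimen. The specimen numbers of study 1 rest on these choices. Genes above the array median in at least 3 averages were tested (8593). Differences were fitted with limma 3.58.1 (R 4.3.3; lmFit, eBayes, 34 residual df) with the specimen as a random block (correlation 0.112 on quantile-normalized and 0.121 on deposited values) and p-values adjusted by Benjamini-Hochberg over all genes, with a threshold of 0.05. The block rests on specimen codes shared by both tissues, and block and averages use the codes without their letters. Captured cells were compared with whole tissue on quantile-normalized values, since array medians differed, and days on deposited values. The number of arrays limits the precision. The study difference was taken over shared days. The procedure was tested on simulated data with 200 changed genes. Probe sets were fitted alike (13139 tested). Alternatives were other scalings, no filter, no or a fixed block, the mean over probe sets, a 3-prime to 5-prime covariate and leaving out specimens; leaving out the array that stood apart was chosen after seeing the data.

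By rule, levels were given for up to 3 members per family and direction with the largest study 2 difference among those called alike in both studies, for up to 3 each with opposite calls, with the largest study difference and with the largest F per day comparison. For members with an opposite probe set differences were given, and up to 3 genes per list and direction were named. Other members were named, and their values given, after these were seen. The members, lists and motifs were chosen with earlier results of these data known.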

Additional observations from a re-analysis of the deposited data

Results flagged for a closer look

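In study 1, where captured cells of days 7 and 17 have 4 specimens each, 7 of 150 tests found 1 specimen far from the other 3 (values as deposited, log2), and chance gives about 1 in 20. At day 17, code 12 had Prpf8 at 8.13 (others 8.54 to 8.61) and Rbm4b at 3.53 (3.35 to 3.38), and code 3 had Sf3a2 at 9.93 (10.28 to 10.31) and Snrpd3 at 8.39 (8.59 to 8.63). At day 7, code 5 had Hnrnpll at 8.06 (8.94 to 8.99), and code 003 had Prpf4b at 10.24 (9.94 to 9.96) and Srsf4 at 9.37 (8.72 to 8.77).

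The captured minus whole difference differed between the studies in 27 members (limma, adjusted p under 0.05, difference of study 2 and study 1 in log2). It was lower in study 2 for Hnrnpl (−3.62), Alyref (−3.34), Rbm17 (−2.36), Srsf9 (−2.16), Rbm47 (−2.02), Rbm39 (−1.90), Hnrnpa1 (−1.57), Snrpd3 (−1.57), Srsf10 (−1.32), Hnrnpu (−1.26), Sf3b5 (−1.14), Rbm38 (−1.09), Prpf31 (−0.99), Sf3b3 (−0.96), Srsf5 (−0.94), Rbm43 (−0.88), Hnrnph2 (−0.88), Sf3a1 (−0.80) and Prpf40b (−0.72). It was higher in study 2 for Sf3b6 (1.51), Srsf11 (1.22), Rbm15 (0.96), Rbm26 (0.85), Srsf6 (0.85), Snrpb2 (0.80), Rbm18 (0.74) and Srsf3 (0.58).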

How the results depend on the processing

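All counts are of 74 tested members. The settings also move the calls of all genes. Where no share of all genes stands beside a count in this section, the count describes the setting and is no result about the members. On the values as deposited, 1 was higher and 72 lower in study 2, 9 and 32 in study 1 (against 7.67% and 60.2% of all genes there), 0 and 32 in both, and 61 differed between the studies. After median centring of each array, 43 were higher and 16 lower in study 2, 2 lower in study 1, and 25 higher and 0 lower in both. With the 3-prime to 5-prime covariate, 11 were higher in study 2, 18 higher and 11 lower in study 1, 6 higher and 7 lower in both, the days differed for 3 in captured cells of study 2, and 1 passed for day 105 against day 7 there. With the mean over all probe sets, 5 were lower in both and 41 differed between the studies. Without day 104, 11 were lower in study 1. With the specimen as a fixed block, 1 was lower in study 1 and 0 in both; with no replicate block, 26 were lower in study 2, 27 higher in study 1, and the days differed for 8 and 11 members of captured and whole tissue of study 2. Without the filter the days differed for 5 in captured cells of study 2. With quantile normalization, day 105 differed from day 7 for 8 in whole tissue. Without the array that stood apart, the days differed for 24 in whole tissue of study 2 (against 35.7% of all genes) and 2 in captured cells of study 1 (against 1.93%). Day 105 then differed from day 7 for 4 in captured cells (against 11.2%) and 8 in whole tissue of study 2 (against 24.3%).

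Leaving out 1 of 33 specimens gave 23 to 28 higher and 23 to 28 lower in study 2, and 24 to 33 higher and 5 to 11 lower in study 1 (11 without day 104). It gave 13 to 19 higher and 1 to 4 lower in both (1 without code 12 of day 17, code 14 of day 33 or code 1 of day 7 of study 1), and 26 to 32 with a study difference. Days differed for 5 to 34 (captured) and 3 to 19 (whole) in study 2 and 0 to 2 (captured, 2 without code 2 of day 49 of study 2) and 0 (whole) in study 1. Day 105 differed from day 7 for 0 to 4 in captured and 0 to 7 in whole tissue.

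Of single values, those that changed sign were, with the mean over probe sets, Hnrnpf (−0.57 in study 2, −0.34 in study 1), Srsf1 (−0.30), Sf3b2 (−0.27), Rbm8a (−0.057) and Rbm39 (0.30) in study 2 and Prpf6 (0.77) in study 1. With the covariate they were Sf3b2 (−0.84 in study 2, −0.086 in study 1), Snrpg (−0.33) and Rbm8a (−0.41) in study 2. The cause was not tested.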
